A study of Homo sapiens with 6 samples.

Results

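The genes described here encode ion channels and their subunits. They are the probe sets of the array whose single gene symbol starts with KCN (potassium channels), SCN (sodium channels), CACN (calcium channels), CLCN (CLC chloride channels) or CLIC (chloride intracellular channel proteins). The rule, which uses names and no measured value, found 101 probe sets for 101 genes, among 8746 probe sets in all. These families were chosen with earlier results of these data known, so a call among them is no independent test. Another 3 probe sets name a channel beside a second gene (KCNJ12 with KCNJ18 on 2 of them, KCNA6 with GALNT8) and were left out. The RNA came from A549, an established human lung adenocarcinoma cell line, so all arrays share 1 cell line. On 3 arrays the cells had been exposed for 1 hour to 50 µM cisplatin, a platinum compound that forms DNA crosslinks, and on 3 control arrays to medium without the drug. Both groups then spent 10 hours in drug-free medium, and the series description gives 3 independent experiments. The study's design asks which transcripts differ after the drug.

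Ion channels are membrane proteins whose pore lets ions run down their gradient when voltage, calcium or a ligand opens it. Pore-forming subunits are often joined by accessory subunits that set gating or delivery to the membrane. KCNMA1 encodes the pore of the BK channel, a potassium channel of large conductance that is opened by both voltage and intracellular calcium, and the KCNMB genes encode its beta subunits. Many channel genes of these families are best known from nerve, muscle and heart, while epithelial cells use others for volume control, secretion and the resting potential.

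A549 cells showed signal above background for few of these channels. The data hold no detection call, so background was read from 63 probe sets of genes restricted to other tissues (nerve, muscle, blood, endothelium, pancreas, eye, testis and others). A probe set counted as above background when, on each of the 3 control arrays, it exceeded the 95th percentile of these absent markers, which was an intensity of 82.1 on control 1, 64.9 on control 2 and 85.1 on control 3. By this rule 11 of the 101 channel probe sets (10.9%) stood above background, against 38.7% of all 8746 probe sets. On all 3 cisplatin arrays 9 stood above the same percentile, against 36.9% of all probe sets; these were 9 of the 11, without KCNMA1 and KCNAB2. In control cells a further 6 exceeded the level on 1 or 2 control arrays and 84 on none. Of the absent markers themselves 2 met the rule, so a probe set just over the level need not show expression. Intensities of different probe sets depend on their probes and give no order of transcript abundance between genes.

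The epithelial and A549 markers gave a check of the cells. Of 12 listed genes 10 stood above background, among them the keratin gene KRT18 and the aldo-keto reductase gene AKR1B10. The 10 also include GAPDH, which most cells express and which marks no cell type. CDH1 and EPCAM, which encode epithelial adhesion proteins, did not, with intensities between 26.1 and 46.1 on the 6 arrays. A probe set under the level thus need not mean that its transcript is absent.

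**Figure D1:**
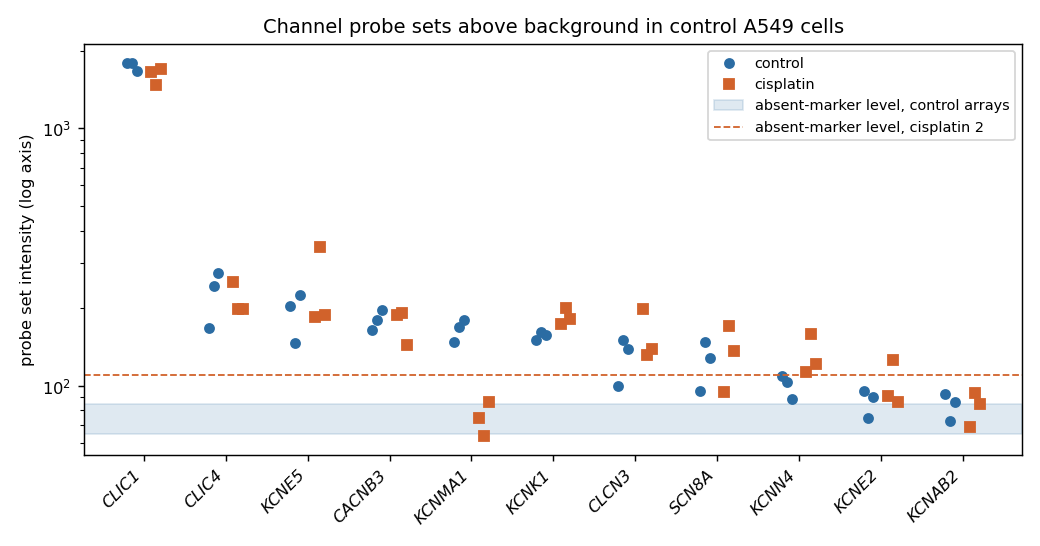
Intensity (log axis) of the 11 channel probe sets above background in control A549 cells, with 1 point per array (blue circles, 3 control arrays; orange squares, 3 cisplatin arrays). The band spans the absent-marker levels of the control arrays (64.9 to 85.1) and the dashed line is the level of cisplatin 2 (109.6); KCNMA1 is the gene whose cisplatin points lie apart from and below its control points, down in the band or just outside it.

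Of the 11, the pore-forming subunits were KCNMA1, KCNN4, KCNK1, SCN8A and CLCN3. KCNN4 encodes a calcium-activated potassium channel of intermediate conductance, KCNK1 a two-pore-domain potassium channel, SCN8A a voltage-gated sodium channel known from neurons, and CLCN3 a chloride/proton exchanger of endosomes. The accessory subunits were KCNE5 and KCNE2, of the MinK family of potassium channel partners, KCNAB2, a cytoplasmic potassium channel beta subunit, and CACNB3, a calcium channel beta subunit. The other two were CLIC1 and CLIC4, of a family of proteins that exist in soluble and membrane forms. No pore subunit of a voltage-gated potassium channel (17 KCNA, KCNB, KCNC, KCND, KCNH and KCNQ genes and 6 silent KCNF, KCNG, KCNS and KCNV genes), of an inward rectifier (11), of a voltage-gated calcium channel (9) or of the epithelial sodium channel (4) was above background on all 3 control arrays. Among these the highest control mean was that of KCNG1, a silent subunit, at 77.1 ± 9.49 (mean ± SD, n = 3), which exceeded the level on 1 control array. CLIC1 was at 1800, 1788 and 1667 in control cells and at 1649, 1470 and 1698 after cisplatin, so its groups overlapped.

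The 250 bases before the RefSeq start were compared for these genes because CG dinucleotides cluster in the promoters of many broadly used genes. The RefSeq windows used (GRCh38.p14) covered 79 of the 101 channel genes. The genes without a window were all among those not above background. For each gene 1 start was used, the first listed, so a window need not be the promoter used in these cells. The 11 genes above background had a median of 27 CG dinucleotides in it (range 1 to 46), and 9 of the 11 had 10 or more. The other 68 had a median of 17 (0 to 51), and 42 of them had 10 or more. Over the whole array 87.1% of genes above background and 60.1% of the others reached 10, and 51.9% of all 27305 windows in the table. These counts are a description. Of the genes above background KCNMA1 had 46 and SCN8A 45, but KCNE2 had 1 and KCNN4 had 5, and CACNA1C, not above background, had 51. The windows of KCNMA1 (the channel that changed, chr10:77637809-77638058, minus strand, 46 CG), CLIC1 (the channel probe set with the highest control mean, chr6:31736531-31736780, minus strand, 11 CG) and KCNA3 (a potassium channel known from T lymphocytes that exceeded the level on no control array, chr1:110671776-110672025, minus strand, 0 CG) are given as examples. KCNA3 was picked because no pore gene above the level on 0 control arrays had fewer CG, but SCN7A and SCN10A also had 0. Whether the KCNA3 window lies before the start most used by the gene was not tested. The windows are written 5′ to 3′ with each CG in capitals.
KCNMA1: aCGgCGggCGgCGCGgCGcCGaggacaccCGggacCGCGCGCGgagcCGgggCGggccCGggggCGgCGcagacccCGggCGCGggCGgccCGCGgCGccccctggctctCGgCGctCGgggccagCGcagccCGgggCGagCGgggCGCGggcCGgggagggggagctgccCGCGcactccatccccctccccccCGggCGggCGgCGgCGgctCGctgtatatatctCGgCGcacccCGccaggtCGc
CLIC1: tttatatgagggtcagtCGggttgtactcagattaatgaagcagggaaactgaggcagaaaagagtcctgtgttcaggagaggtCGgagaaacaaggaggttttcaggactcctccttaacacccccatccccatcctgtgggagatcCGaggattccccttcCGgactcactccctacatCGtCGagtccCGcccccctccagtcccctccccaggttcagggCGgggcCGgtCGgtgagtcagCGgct
KCNA3: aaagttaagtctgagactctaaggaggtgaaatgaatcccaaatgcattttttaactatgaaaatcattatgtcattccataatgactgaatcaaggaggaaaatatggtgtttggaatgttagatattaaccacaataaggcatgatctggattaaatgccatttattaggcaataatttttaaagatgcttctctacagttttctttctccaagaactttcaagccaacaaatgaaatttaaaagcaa

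KCNMA1 was the one channel gene called after cisplatin, and it fell. Its probe set had intensities of 147, 169 and 180 on control 1 to 3 and of 74.8, 63.5 and 86.1 on cisplatin 1 to 3. All 3 cisplatin arrays lay below all 3 controls, with a gap between 86.1 and 147. The mean went from 165 ± 16.8 to 74.8 ± 11.3 (SD, n = 3 each), or 45.2% of control. On the log2 scale with an offset of 11.8 added to every intensity it fell by 1.04 (SE 0.15, 95% interval -1.38 to -0.70), a 2.05-fold decrease, with an adjusted p of 0.0276 in limma over 6559 tested probe sets. In RNA from whole cultures, fewer cells with the transcript and less of it per cell cannot be told apart. After the drug the probe set was still above the absent-marker level on 2 of 3 arrays (levels of 69.0, 109.6 and 76.6 on cisplatin 1 to 3), so the lower end of the change lies near background. The call was lost when any one of control 2, control 3 or cisplatin 1 to 3 was left out (adjusted p 0.0795 to 0.165). It was also lost without the filter on dim probe sets (0.0606), without the intensity trend (0.0663) or with the replicate number as a block (0.200). Without control 1 it was kept (0.0218). The log2 fold stayed between -1.15 and -0.89 over 16 alternative settings.

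Of the 101 channel probe sets 53 were bright enough to be tested. KCNMA1 was the 1 past the threshold and 52 were not, where 0.29% of all tested probe sets passed (0.0762% lower and 0.213% higher). At an unadjusted p under 0.05 there were 2, KCNMA1 and CACNG3, both lower, where 5.03% of all tested probe sets reached it (1.63% lower and 3.4% higher). The groups did not overlap for 6 of the 53 (11.3%), 4 higher and 2 lower, against 11.0% of all tested probe sets (7.42% higher and 3.57% lower). The median log2 fold of the 53 was 0.08, with the middle of the distribution between -0.05 and 0.18, and that of all tested probe sets was 0.04. Of the 53, 35 were higher and 18 lower, or 66.0% higher against 60.5% of all. With arrays centred on the median 50.9% were higher, against 41.3% of all, and with quantile normalization 50.9% against 49.8%. Without cisplatin 2 the channel median was -0.02, against 0.03 for all tested probe sets. That array had the highest absent-marker level of the 6 (109.6, against 64.9 to 85.1 on the others) and a median intensity of 67.2 against 57.2 to 59.7, and the part of this in the channel values was not tested.

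**Figure D2:**
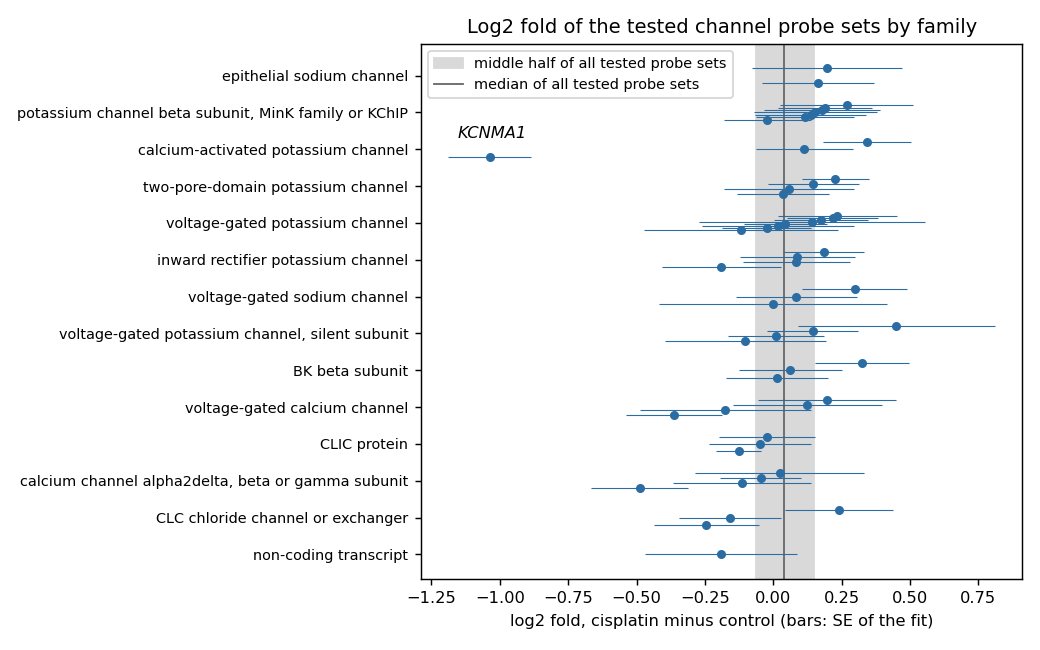
Log2 fold (cisplatin minus control) of the 53 tested channel probe sets by family, 1 point per gene with the SE of the fit. The grey line and band are the median (0.04) and the middle of the distribution (-0.06 to 0.15) of all tested probe sets; KCNMA1, at -1.04, lies apart from every other channel, all of which are within 0.5 of 0.

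For the BK channel the pore gene and 4 beta subunit genes were measured. The pore gene fell, and none of its 4 beta subunit genes was above background or passed the test. KCNMB4, the beta subunit best known from brain, had intensities of 33.8, 31.8 and 35.0 in control cells and 36.6, 53.5 and 46.1 after cisplatin. The cisplatin values lay above the controls, with a log2 fold of 0.32 (95% interval -0.06 to 0.71, adjusted p = 0.999), and all 6 were under the absent-marker level. KCNMB1, the beta subunit of smooth muscle, had a log2 fold of 0.01 and KCNMB2 one of 0.06. All 3 tested beta subunit genes were thus higher as deposited, but with arrays centred on the median or quantile normalized 1 was higher (KCNMB4) and 2 lower (KCNMB1 and KCNMB2). KCNMB3 was too dim to be tested, at 4.70 to 16.7 in control and 8.81 to 18.7 in treated cells, and its groups overlapped.

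**Figure D3:**
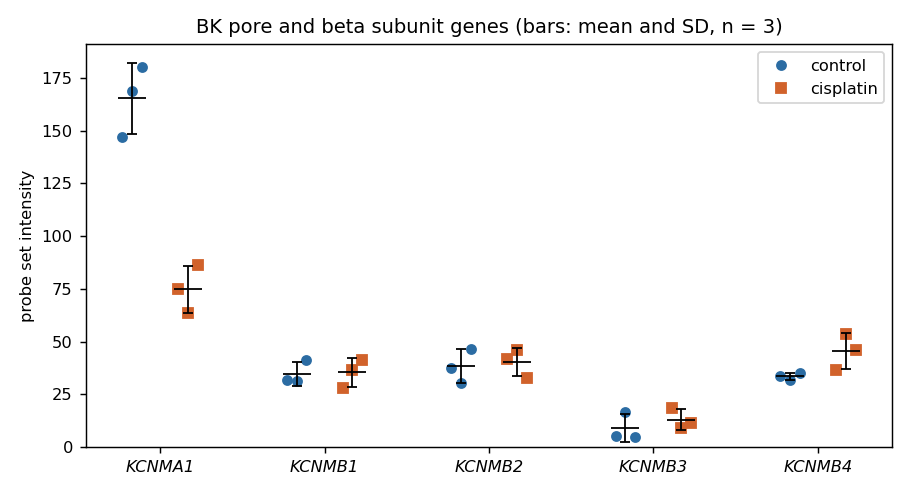
Intensity of the BK pore gene KCNMA1 and the beta subunit genes KCNMB1 to KCNMB4 on each array (blue circles, control; orange squares, cisplatin), with mean and SD (n = 3 each). KCNMA1 is the one gene of the 5 with a called change (165 to 74.8); the beta subunits reach at most 53.5 (KCNMB4 on cisplatin 2).

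The KCNN genes encode further calcium-activated potassium channels, and none was called. KCNN4 was at 109, 103 and 88.7 in control cells and at 113, 159 and 121 after cisplatin. Every treated value was above every control value, cisplatin 2 being the highest, but the difference did not pass (log2 fold 0.34, 95% interval -0.02 to 0.70, adjusted p = 0.977). KCNN1, a channel of small conductance, had a log2 fold of 0.11, and KCNN3, also of small conductance, was too dim to be tested, with a control mean of 8.26.

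The 2-pore-domain potassium channels set the resting potential of many cells, and KCNK1 was the member above background. It was at 151, 161 and 157 in control cells and at 174, 200.0 and 181 after cisplatin. The groups did not overlap, but the log2 fold of 0.23 (95% interval -0.05 to 0.50) had an adjusted p of 0.999. Of 8 members 4 were tested, with log2 folds from 0.04 to 0.23 and none called; 4 of the 4 were higher as deposited, and 2 with arrays centred on the median or quantile normalized. The other 4 were too dim.

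Voltage-gated potassium channels repolarise excitable cells. Of 17 pore genes 8 were tested, 6 higher and 2 lower (4 and 4 under both other scalings), none called, with log2 folds from -0.12 to 0.23. KCNH2, the hERG channel of the heart, was at 46.1, 45.3 and 50.7 in control cells and 70.4, 53.0 and 49.3 after cisplatin, with overlap and a log2 fold of 0.22, which was 0.09 without cisplatin 1. Of the 6 silent subunits, which need another pore subunit to work, 4 were tested and none called. KCNS3 had the highest log2 fold of these, 0.45 (SE 0.36), with a control value of 4.96 beside 37.7 and 27.1, and without that array, control 1, the log2 fold was -0.01. KCNG1 had a log2 fold of 0.14. Of 11 inward rectifiers, which pass potassium more easily into than out of the cell, 4 were tested and none called, with log2 folds from -0.19 (KCNJ4) to 0.18 (KCNJ5).

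Potassium channel partners of the KCNAB, KCNE and KCNIP families were measured by 8 probe sets, 7 of them tested, with 6 higher and 1 lower under all 3 scalings and none called. KCNE5 was at 204, 146 and 224 in control cells and at 184, 345 and 188 after cisplatin. Cisplatin 2 stood apart from the other treated arrays, and its log2 fold of 0.27 had an interval from -0.28 to 0.81. Without that array it was -0.02. KCNE2 showed the same array as its highest, at 126 against 91.3 and 86.1, with a log2 fold of 0.19. KCNAB2 had a log2 fold of -0.02 (95% interval -0.38 to 0.33).

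Calcium channel genes gave the next lowest folds after KCNMA1. CACNG3 encodes a relative of the calcium channel gamma subunits that is known for guiding AMPA-type glutamate receptors in neurons. Its probe set was at 50.7, 63.9 and 60.4 in control cells and at 46.9, 37.5 and 30.9 after cisplatin. All treated values lay below all controls, with a log2 fold of -0.49 (95% interval -0.88 to -0.09), but the adjusted p was 0.780 and every value was under the absent-marker level of its array. CACNA1C, the pore of the L-type calcium channel of heart and smooth muscle, was at 74.9, 67.5 and 62.2 in control cells and at 49.4, 40.2 and 63.6 after cisplatin. The groups overlapped through cisplatin 3, and the log2 fold was -0.36 (95% interval -0.76 to 0.03, adjusted p = 0.982), or -0.23 without cisplatin 2. CACNB3, the calcium channel subunit above background, had a log2 fold of -0.05 (95% interval -0.38 to 0.29), from 180 ± 16.1 to 175 ± 26.9. Of 9 pore genes 4 were tested, 2 higher and 2 lower, and of 10 accessory genes 4 were tested, 1 higher and 3 lower (all 4 lower under both other scalings), none called.

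Sodium channels carry the upstroke of the action potential, and the epithelial sodium channel takes up sodium across airway and kidney epithelium. SCN8A was at 95.2, 148 and 128 in control cells and at 94.1, 170 and 136 after cisplatin, with overlap and a log2 fold of 0.08 (95% interval -0.41 to 0.58). SCN10A, a channel of sensory neurons, was at 46.7 to 50.5 in control cells and at 51.0, 85.3 and 54.1 after cisplatin. Its treated values were all higher, most of all on cisplatin 2, but the log2 fold of 0.30 had an adjusted p of 0.999 and was 0.10 without that array. SCNN1A, the alpha subunit of the epithelial channel, was below background, at 24.9 to 37.7 in control cells, with a log2 fold of 0.16. None of the 3 tested pore genes of voltage-gated sodium channels or the 2 tested epithelial genes was called, and both sodium channel beta subunits were too dim to be tested.

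The chloride channel and CLIC genes that the naming rule takes in form 2 families with 5 measured members each. Of each family 3 were tested. CLCN3 was at 99.9, 151 and 139 in control cells and at 199, 131 and 138 after cisplatin, with overlap and a log2 fold of 0.24 (95% interval -0.20 to 0.68). Without cisplatin 1 that log2 fold was 0.07, and without control 1 it was 0.08. CLCN1, the chloride channel of skeletal muscle, had a log2 fold of -0.24 (95% interval -0.67 to 0.19). The 3 tested CLIC genes were lower under all 3 scalings, and none was called. CLIC1 had a log2 fold of -0.13 (SE 0.08, 95% interval -0.31 to 0.05) and CLIC4 one of -0.05 (95% interval -0.47 to 0.37).

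KCNQ1DN, which the naming rule takes in, is a non-coding RNA gene in RefSeq; its log2 fold was -0.19 (SE 0.28).

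The 48 channels too dim to be tested had control means from 0.584 to 24.0, with a median of 11.6, and none was above background in either group. Of these, 6 had groups that did not overlap, 5 lower and 1 higher, where 10.1% of all probe sets under the filter were separated (3.75% lower and 6.36% higher). The lower ones were CACNA1A and CACNA2D1, a pore and an accessory calcium channel subunit, CLCN5, CLIC2 and KCNJ6. CLIC2 was at 14.3, 4.41 and 7.95 in control and -4.62, 2.64 and -0.796 in treated cells, and with the filter lifted its log2 fold was -0.69 and its adjusted p in limma 0.790. The higher one was SCN2B, a sodium channel beta subunit, at 13.7, 17.2 and 16.7 in control and 25.7, 27.2 and 24.3 in treated cells. With the filter lifted its log2 fold was 0.44 and its adjusted p in limma 0.831. None of the 48 was called in that fit, where 0.149% of all probe sets passed. An unadjusted p under 0.05 was found for 3 of the 48, where 5.03% of all tested probe sets reached it in the main fit. These 6 genes were picked out after their values were seen.

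KCNMA1 and CACNA1C are also among the longest channel genes, with spans in RefSeq of 768 and 727 kb. Of the 7 tested channel genes with a span of 300 kb or more, 3 were lower after cisplatin, and their median log2 fold was 0.06, against 0.08 for the other 46. Over all tested probe sets with a span the medians were -0.05 for the 186 at or above 300 kb and 0.04 for the rest. The rank correlation of span and log2 fold was -0.17 across the 53 channel genes and -0.12 across 52 without KCNMA1. Across the 5914 tested probe sets with a span it was -0.086. These values are a description of genes read on the same 6 arrays. CACNA1E (490.4 kb) and KCNH1 (456 kb), a calcium and a potassium channel pore gene, had log2 folds of 0.20 and 0.14. KCNQ1 (404 kb), a potassium channel of heart and epithelia, was the third lower one, at -0.12, and KCNIP1 (383 kb) and KCNMB2 (308 kb) had log2 folds of 0.18 and 0.06.

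**Figure D4:**
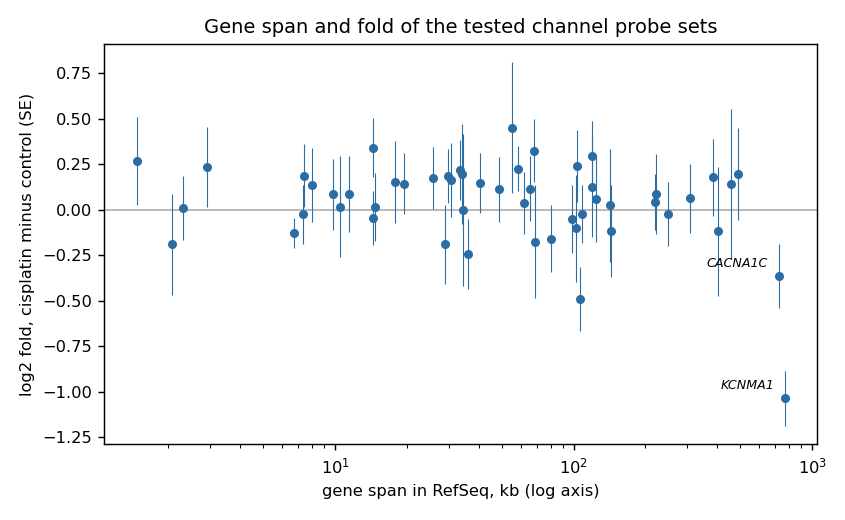
Gene span in RefSeq (kb, log axis) against log2 fold (cisplatin minus control, with SE) for the 53 tested channel genes. KCNMA1 and CACNA1C, the 2 longest, lie at -1.04 and -0.36; the points of shorter genes spread around 0.

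Other genes of ion transport, which the naming rule leaves out, gave no call in limma. Of 97 listed genes 64 were measured and 39 tested, 26 higher and 13 lower, or 66.7% higher against 60.5% of all tested probe sets, with a median log2 fold of 0.07 against 0.04. With arrays centred on the median 18 were higher and 21 lower, with quantile normalization 20 and 19, and the medians were -0.0041 and 0.01. At an unadjusted p under 0.05 there was 1, where 5.03% of all tested probe sets reached it. In the list of calcium stores, entry and pumps, 0 of 9 tested genes passed. Its lowest p was that of ORAI3, a subunit of store-operated calcium channels, at 98.9, 112 and 118 in control cells and 134, 172 and 179 after cisplatin. The groups did not overlap, with a log2 fold of 0.51 (95% interval 0.17 to 0.85) and an adjusted p of 0.565. Among other channels 0 of 16 passed, with CLCA1, a secreted regulator of chloride channels, at a log2 fold of 0.50. Its value of 84.1 on cisplatin 2 stood above 31.2 and 49.8 on the other treated arrays, and without it the log2 fold was 0.20. Among sodium, potassium and chloride transporters 0 of 14 passed, with SLC4A4, a sodium bicarbonate cotransporter, at -0.27 (95% interval -0.66 to 0.13). Of the 64 measured genes 17 (26.6%) were above background in control cells, against 38.7% of all probe sets.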

How the data were processed

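The deposited table holds 1 linear intensity per probe set and array, and 1.37% of the values are at or below 0, so the values are not plain scanner brightness. How probes were summarised, whether a background was subtracted and whether arrays were scaled is not given in the sources used here. Values at or below 0 were set to 0, 11.8 (the 10th percentile of positive values) was added and log2 taken. The 75th percentiles of the 6 arrays spanned 0.15 on that scale, so arrays were used as deposited. Of 8746 probe sets besides 47 controls, the 6559 whose mean log2 reached the 25th percentile were tested in limma 3.58.1 under R 4.3.3 (lmFit, eBayes with intensity trend, two-sided, Benjamini-Hochberg over all tested probe sets, threshold 0.05). Exact tests of single genes were not run, since 3 arrays a group allow no p under 0.1. The limma step was checked on simulated data with 200 changed probe sets. It recovered 70.1% of 2-fold and 28.6% of 1.5-fold changes, so changes of 1.5-fold were mostly missed there. The changed probe sets were drawn from all those tested, with noise independent between probe sets. The median SE was 0.19 for the tested channels and 0.17 for all, and recovery for channels alone was not tested. Figures used matplotlib 3.10.9.

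Gene symbols came from the platform's probe table, where 7840 probe sets have a single symbol, 388 several and 518 none. All 101 channel genes matched RefSeq by Entrez identifier, with 0 symbols changed. Named were the genes past the threshold, the 6 lowest p values in each direction, the 12 highest control means and the lowest p of each transport list; other names are examples chosen after their values were seen. The members and lists were chosen with earlier results of these data known. Precision is limited by the number of arrays. Alternatives covered scaling, offset, filter, variance trend, replicate block, left-out arrays, the ACTB 3′/5′ ratio as a covariate and the background level.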

Additional observations from a re-analysis of the deposited data

How the results depend on the processing

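Of the channel genes KCNMA1 was called under 8 of 16 alternatives and 0 were called under the other 8. Against 1 main call, 0 channels passed without the filter (adjusted p of KCNMA1 in limma 0.0606) and without the intensity trend (0.0663). Leaving out 1 array gave 0 to 1 calls, and KCNMA1 stayed lower throughout. Over all probe sets 19 passed, against 11 after median centring of the arrays, 8 without the intensity trend and 47 with the ACTB 3′/5′ ratio as a covariate (the 19 included); leaving out 1 array gave 6 to 18. The cause was not tested. With the replicate number as a block (replicate block) 5 probe sets and 0 channels passed (KCNMA1 adjusted p = 0.200). No label ties equal numbers to 1 experiment. For numbers 1, 2 and 3, the deviations of the control and the cisplatin array correlated at -0.56, -0.31 and -0.12. With 3 arrays a group such values also hold what is peculiar to each array. They therefore cannot decide whether equal numbers mark 1 experiment, and the fit with the block stays among the alternatives.

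Without control 1 and cisplatin 2 together, the median log2 fold of the channels was -0.03, against 0.0034 for all tested probe sets. KCNMA1 passed in that fit (adjusted p in limma 0.0157). Channels above background numbered 11, and 6 with the maximum of the absent markers as the level, which dropped CLCN3, KCNAB2, KCNE2, KCNN4 and SCN8A. The 90th percentile gave 14, the mean over control arrays 11, a pooled level on centred arrays 9 and leaving out 1 control array 11 to 12. For the other transport genes as a list, calls were counted under fewer alternatives. They gave 0 with arrays centred on the median and with the mean of all tested probe sets of a gene. Named genes other than KCNMA1 passed under no alternative, and the direction of KCNS3, CLCN1, KCNJ4, CLIC4, KCNE5, CACNB3, SCN8A and KCNAB2 changed under some, as did that of KCNMB1 and KCNMB2 under both other scalings. Signal over background limits the 90 channels that did not meet the level.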
